A study of Mus musculus with 4 samples.

Results

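Costimulatory and inhibitory receptors are membrane proteins that adjust how strongly a T cell responds when its antigen receptor (TCR) is engaged. Cd28 and Icos add a costimulatory signal, whereas Ctla4, Pdcd1 (PD-1), Lag3, Havcr2 (TIM-3), Tigit and Btla are known mainly as inhibitory receptors that restrain activated T cells. Cd160 and Cd244 (2B4) can act in either direction and are also known from NK cells. Naive CD4 T cells carry Cd28 and Btla, whereas Icos, Ctla4, Pdcd1, Lag3 and Havcr2 are known to be induced after TCR stimulation. The 10 genes were taken by name as the Cd28 family and coinhibitory receptors of T cells. Probes were assigned to them through the RefSeq transcript that each probe was designed on, and 13 of 41173 probes, for 9 of the 10 genes, were found among 18745 genes in all. Tigit had no probe matched in this way and was not analysed here. Cd244 is listed as Cd244a in RefSeq.

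Gene expression was read on 4 one-colour (Cy3) Agilent whole mouse genome arrays. Naive splenic CD4 T cells of C57BL/6J mice, all labelled female and labelled Bach2 WT or Bach2 KO (Bach2 flox/flox × CD4-Cre TG), were activated over 2 days by antibodies to TCR-β (immobilized, 3 μg ml−1) and CD28 (1 μg ml−1), and IL-2 (2.5 ng ml−1) supported a further 3 days of culture. One array of each genotype held these cells as they were, and another held cells re-stimulated with the immobilized anti-TCR-β mAb for 4 h without added IL-2. The Cre transgene is driven by the Cd4 promoter, which is also active in precursors of CD8 T cells, and the study describes its WT controls as CD4-Cre mice. The labels give neither the age of the mice nor how many were pooled.

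Each condition was 1 array, so no difference has a replicate check and no test between conditions was made. A difference of at least 2-fold, 1 on the log2 scale, served as a rule of size, and "past 2-fold" refers to it below. Signals are background-subtracted intensities. Differences are on the log2 scale after the 75th percentile of each array, between 312.6 and 436.2, was taken away, so that an equal signal before and after re-stimulation is a higher scaled level after it. All 4 arrays read the brightest probe of each receptor well above background, and none was saturated. The software's own error of these probes was at most 13.33% of the signal. Different probes of one gene disagreed by a median SD of 0.09 (4088 genes) for the genotype difference before re-stimulation and 0.11 (4018 genes) after it, and by 0.16 (3974 genes) and 0.14 (3960 genes) for the re-stimulation difference in cells labelled WT and KO. This spread leaves out differences between mice, cultures and hybridizations. As bulk RNA was read, fewer cells that express a receptor and less RNA per cell cannot be told apart.

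The genotype labels had no clear check. The 1 probe for Bach2 gave signals of 2931.6 (labelled WT) and 2633.0 (labelled KO) without re-stimulation and of 3309.7 and 3079.7 with it, and the part of the transcript it reads is not given in the sources used here. Of 4 Y-linked genes, both arrays labelled KO read 3 well above background and those labelled WT read 0, while Xist was lower on the arrays labelled KO (log2 differences -1.04 before and -1.19 after re-stimulation). The Xist signals were 9524.5 (labelled WT) and 4623.2 (labelled KO) before re-stimulation and 5221.2 and 2584.9 after it, well above background on all 4 arrays. According to the study, mice of both sexes served for its in vitro work. The Y-linked signals of the arrays labelled KO, such as 1185.4 and 950.9 for Eif2s3y, go against their label as female. Whether cells of 1 sex or of both were on these arrays was not tested. The sex of the cells and the genotype label therefore cannot be told apart in any comparison between genotypes. All directions below are between the arrays as labelled.

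**Figure D1:**
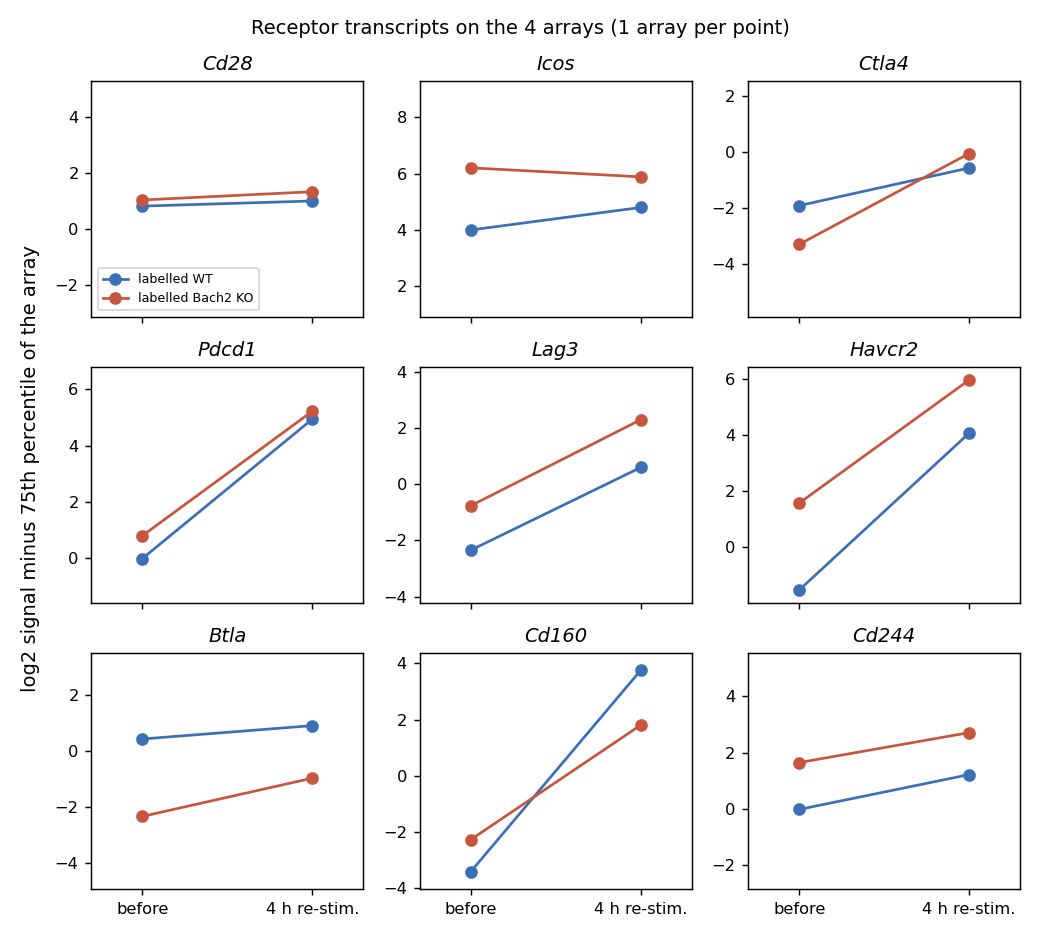
Scaled level (log2 signal minus the 75th percentile of its array) of 9 receptors in cells that were or were not re-stimulated for 4 h, with 1 array per point, blue for the arrays labelled WT and red for those labelled Bach2 KO; all panels span the same height. The lines cross for Ctla4 and Cd160, run apart in the same order for Icos, Lag3, Havcr2, Btla and Cd244, and lie close together for Cd28.

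Before re-stimulation, most of the receptors were higher on the array labelled KO, and Btla, the receptor for HVEM, was lower. Past 2-fold, 5 of the 9 measured receptors were higher (Icos, Lag3, Havcr2, Cd160 and Cd244), against 5.26% of 12133 genes, and 2 were lower (Ctla4 and Btla), against 2.81%. After re-stimulation 4 receptors were higher past 2-fold (Icos, Lag3, Havcr2 and Cd244), against 5.17% of 12345 genes, and 2 were lower (Btla and Cd160), against 3.85%. The median log2 difference over the 9 receptors was 1.14 before and 0.51 after re-stimulation, and over all genes used it was -0.0032 and 0.016.

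**Figure D2:**
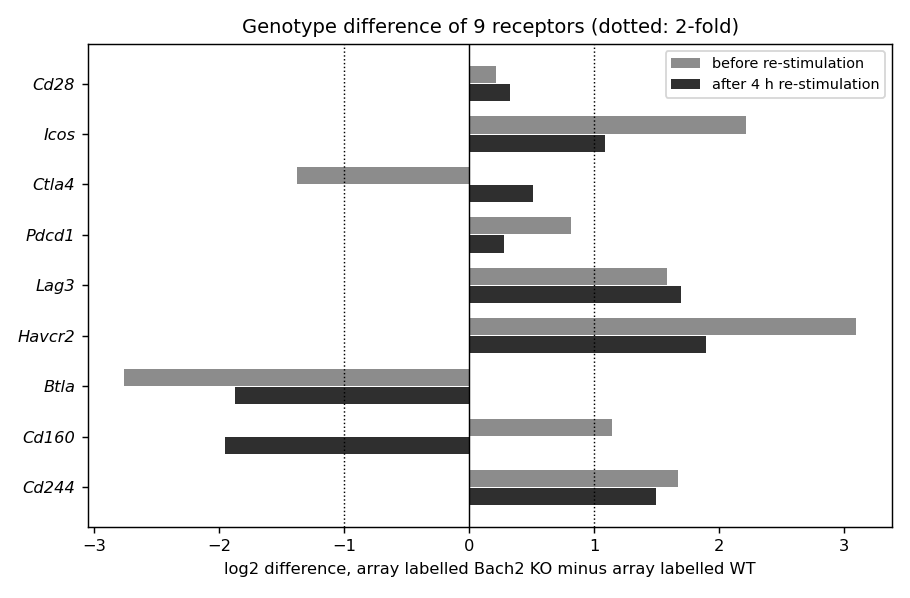
Log2 difference of each receptor between the array labelled Bach2 KO and the array labelled WT, before (grey) and after (black) 4 h of re-stimulation; each bar is 1 array against 1 array and the dotted lines mark 2-fold. Icos, Lag3, Havcr2 and Cd244 lie beyond the right line in both states and Btla beyond the left line in both, while Ctla4 and Cd160 change side.

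Re-stimulation through the TCR for 4 h raised most of the receptors in both genotypes. In cells labelled WT, 6 of the 9 receptors rose past 2-fold (Ctla4, Pdcd1, Lag3, Havcr2, Cd160 and Cd244), against 13.2% of 12385 genes, and 0 fell past it, against 13.5%. In cells labelled KO, the same 6 and Btla rose, 7 in all, against 12.4% of 12391 genes, and 0 fell, against 13.0%. The median log2 difference of the receptors was 1.34 in cells labelled WT and 3.06 in cells labelled KO, with medians over all genes of -0.0053 and 0.00. The balance of all genes depended on the scaling here: 49.3% of the genes past 2-fold rose in cells labelled WT and 48.8% in cells labelled KO, against 29.1% and 30.8% when arrays were scaled to their median and 71.5% and 67.7% when they were scaled to the T cell gene Cd3e.

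The size of this response differed between the genotypes for some receptors. The log2 difference on re-stimulation in cells labelled KO minus that in cells labelled WT was at least 1 for Ctla4 alone, against 1.82% of the 10807 genes that all 4 arrays read well above background, and at most -1 for 3 receptors (Icos, Havcr2 and Cd160), against 3.00%. None of these values was tested.

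**Figure D3:**
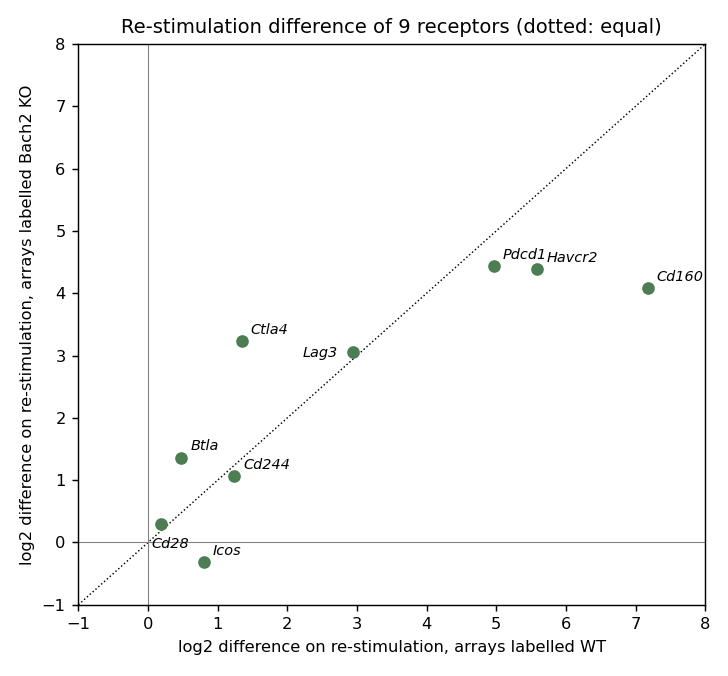
Log2 difference between re-stimulated cells and cells before re-stimulation for each receptor, in cells labelled WT (horizontal) and labelled Bach2 KO (vertical); each point is 1 receptor and the dotted line marks equal differences. Lag3, Cd244 and Cd28 lie close to the line, Cd160 lies furthest below it and Ctla4 furthest above it.

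Among the costimulatory receptors, Cd28, which binds Cd80 and Cd86 and delivers the signal that the anti-CD28 mAb of the culture mimics, showed small differences. Its probe was spotted 10 times on each array, of which 9 spots were used, since the software marked 1 as an outlier. Its median signal was 773.0 (lowest 741.2, highest 827.9) in cells labelled WT and 896.8 (839.1 to 957.3) in cells labelled KO before re-stimulation, and 625.0 (597.7 to 659.8) and 893.4 (854.1 to 919.7) after it. These unscaled signals of the 2 genotypes did not overlap in either state, with an SD between spots of 0.03 to 0.05 on the log2 scale. The 131 to 139 probes spotted about as often had a median SD of 0.05 to 0.06. The spots of an array share their RNA, and how many of those probes were likewise without overlap was not counted. The genotype difference was 0.22 before and 0.33 after re-stimulation, and the re-stimulation difference was 0.18 in cells labelled WT and 0.29 in cells labelled KO. Scaling to the median turned the re-stimulation difference in cells labelled WT to -0.11. In the order of its scaled levels the re-stimulated WT array and the KO array before re-stimulation lay 0.035 apart, within the spread between probes. For each of the other receptors all neighbours in the order were further apart than that spread.

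Icos, the inducible costimulator, which binds Icosl and is known for its part in follicular helper and Th2 responses, had signals of 6924.9 (labelled WT) and 31997.9 (labelled KO) before re-stimulation and 8657.5 and 20808.6 after it. Both arrays labelled KO were above both labelled WT in scaled level, as they were for Cd28 and Cd244. The share of all genes with this order was not counted. The log2 difference between genotypes was 2.21 before re-stimulation, a 4.64-fold difference, and 1.09 after it, a 2.13-fold difference. The re-stimulation difference was 0.80 in cells labelled WT and -0.32 in cells labelled KO, neither past 2-fold, though with scaling to Cd3e they were 1.10 and -0.07, the latter within the spread between probes. Its second probe gave 2.19 and 1.00 between genotypes and 0.71 and -0.48 on re-stimulation.

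Ctla4, which competes with Cd28 for Cd80 and Cd86 and is the inhibitory member of that pair, behaved otherwise. Its signals were 115.3 (labelled WT) and 44.1 (labelled KO) before re-stimulation and 209.6 and 337.7 after it. Of the 4 scaled levels, that of the array labelled KO was the lowest before re-stimulation and the highest after it. Between genotypes the log2 difference was -1.38, and 0.51 once the cells were re-stimulated. Re-stimulation raised Ctla4 by 1.34 in cells labelled WT and by 3.24 in cells labelled KO, 2.54-fold and 9.42-fold, and the gap between these was 1.89. With normexp background correction the genotype difference before re-stimulation was -0.66 and the rise in cells labelled WT 0.90, both under 2-fold, while the rise in cells labelled KO was 1.96 and the gap 1.06. A single probe read this gene.

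Pdcd1 encodes PD-1, an inhibitory receptor that dampens TCR and CD28 signals when it meets its ligands Cd274 (PD-L1) and Pdcd1lg2 (PD-L2). Its signals were 427.1 (labelled WT) and 747.2 (labelled KO) before re-stimulation and 9569.4 and 13131.7 after it. Both re-stimulated arrays lay far above both others, by 4.97 in cells labelled WT (31.3-fold) and 4.44 in cells labelled KO (21.6-fold). The genotype difference, 0.81 before and 0.28 after re-stimulation, did not pass 2-fold in either state.

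Lag3, a CD4-like inhibitory receptor for MHC class II, had signals of 85.6 (labelled WT) and 255.3 (labelled KO) before re-stimulation and 473.1 and 1734.3 after it. It was higher in cells labelled KO by 1.58 before and 1.70 after re-stimulation, 3.00-fold and 3.25-fold. Re-stimulation raised it by 2.95 and 3.06, so that the responses of the 2 genotypes differed by 0.12. With normexp correction the genotype difference before re-stimulation was 0.98, just under 2-fold. The rises were then 2.14 in cells labelled WT and 2.70 in cells labelled KO, and the gap between them was 0.55.

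Havcr2 encodes TIM-3, an inhibitory receptor first known from Th1 cells. It had the widest range of the receptors over the 4 arrays, 7.49 on the log2 scale. Its signals were 151.5 (labelled WT) and 1289.8 (labelled KO) before re-stimulation and 5230.2 and 21961.0 after it. Cells labelled KO were higher in both states, by 3.10 before and 1.90 after re-stimulation (8.55-fold and 3.72-fold), and 0.51% and 1.56% of genes had a difference as high or higher. Re-stimulation raised Havcr2 by 5.59 in cells labelled WT and by 4.39 in cells labelled KO, 48.2-fold and 21.0-fold. The response in cells labelled KO minus that in cells labelled WT was -1.20, and -0.72 with normexp correction, which also gave 2.44 for the genotype difference before re-stimulation and 4.85 for the rise in cells labelled WT. On the WT array before re-stimulation a dimmer second probe was not well above background, which left a lower bound of 1.13 for that genotype difference, and it gave 1.81 after re-stimulation. Among the 10807 genes that all 4 arrays read well above background, those with the most similar 4 values, by Euclidean distance after the mean of each gene was taken away, were Epha2 (distance 0.76), Mt2 (0.86) and Il13 (0.87). Over only 4 arrays this likeness is a description of these arrays.

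**Figure D4:**
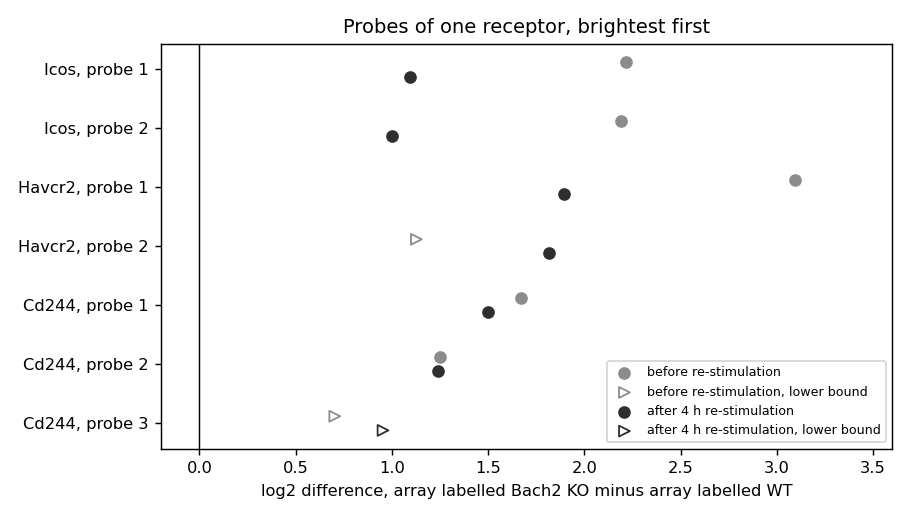
Log2 genotype difference (array labelled Bach2 KO minus array labelled WT) from each probe of the 3 receptors with more than 1 probe, before (grey) and after (black) 4 h of re-stimulation. Open arrowheads are lower bounds, where the dimmer spot was not well above background; every probe lies above 0.

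Btla, which binds Tnfrsf14 (HVEM) and is carried by naive T cells and B cells, had the most negative genotype difference of the 9 receptors before re-stimulation. Its signals were 588.0 (labelled WT) and 86.5 (labelled KO) before re-stimulation and 586.3 and 180.7 after it. Both arrays labelled KO lay below both labelled WT, and the share of all genes with such an order was not counted. The log2 difference was -2.76 before and -1.87 after re-stimulation, 6.77-fold and 3.66-fold lower, and 0.10% and 0.97% of genes had a difference as low or lower. Re-stimulation raised its scaled level by 1.36 in cells labelled KO, and in cells labelled WT the difference was 0.48, under 2-fold. With normexp correction the first of these was 0.81 and did not pass 2-fold, and the genotype difference before re-stimulation was -2.06. Its ligand Tnfrsf14 differed by 0.22 and 0.32 between genotypes.

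Cd160, a glycolipid-anchored receptor that also binds Tnfrsf14, had the largest re-stimulation difference of the 9 receptors in cells labelled WT, whereas in cells labelled KO those of Pdcd1 and Havcr2 were larger. Its signals were 40.7 (labelled WT) and 89.4 (labelled KO) before re-stimulation and 4211.7 and 1227.9 after it. Between the states the order of the genotypes turned, from a log2 difference of 1.14 to one of -1.95. The rise was 7.18 in cells labelled WT, 145-fold, and 4.08 in cells labelled KO, 16.9-fold. The response in cells labelled KO was thus smaller by 3.10 (difference of the log2 differences -3.10), and 0.06% of genes had a value as low or lower. The signals before re-stimulation were low, and with normexp correction the genotype difference there was 0.47, under 2-fold, while the rises were 5.57 and 3.15 and the gap between them -2.41. A single probe read Cd160.

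Cd244, a SLAM family receptor for Cd48 that signals through Sh2d1a and related adaptors, had signals of 427.6 (labelled WT) and 1353.8 (labelled KO) before re-stimulation and 724.3 and 2305.5 after it. It was higher in cells labelled KO by 1.67 before and by 1.50 after re-stimulation, 3.18-fold and 2.82-fold. Re-stimulation raised it by 1.24 and 1.07, values that fell to 0.94 and 0.80 with scaling to the median and so under 2-fold. A second probe gave genotype differences of 1.25 and 1.24, and the third gave lower bounds of 0.70 and 0.95.

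The sequence in front of the gene start was searched for TGANTCA, a core of the AP-1 motif with any base in its centre, read on both strands. The search was made because the study concerns the binding of Bach2 and Batf to AP-1 motifs. Of the 32851 windows of 250 bases before a start in the RefSeq promoter table (GRCm38.p6), 6.75% held TGANTCA. The table had 8 windows for 7 of the 10 receptors, not those of Cd28, Icos and Lag3, and 2 windows held it, those of Havcr2 and Cd244. The study writes the AP-1 consensus as TGA(G/C)TCA, which covers the match of Cd244 (TGAGTCA) but not that of Havcr2 (TGATTCA). A link between TGANTCA and the genotype difference was not tested. The longer form GCTGANTCA, which contains TGANTCA, was in 1.02% of all windows and in 0 of the 8. Both matching windows are shown, 5′ to 3′ on the strand of the gene and ending at the base before the start, with the match in capitals. That of Havcr2 is chr11:46454681-46454930 (+ strand), with the match from base -200 to -194 relative to the start, and that of Cd244 is chr1:171558943-171559192 (+ strand), with the match from base -122 to -116. These are matches of letters and no binding was measured here.
Havcr2: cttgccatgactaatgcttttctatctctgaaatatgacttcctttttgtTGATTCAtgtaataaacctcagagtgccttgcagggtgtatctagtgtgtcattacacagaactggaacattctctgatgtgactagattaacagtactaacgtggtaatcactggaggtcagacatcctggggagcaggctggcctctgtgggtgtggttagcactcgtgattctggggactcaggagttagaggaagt
Cd244: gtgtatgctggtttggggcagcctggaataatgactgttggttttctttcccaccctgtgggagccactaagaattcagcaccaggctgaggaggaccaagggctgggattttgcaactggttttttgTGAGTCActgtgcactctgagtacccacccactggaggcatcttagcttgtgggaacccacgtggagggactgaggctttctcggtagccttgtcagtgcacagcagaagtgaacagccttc

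The ligands of these receptors are carried by antigen-presenting cells, and some also by T cells. Of 14 listed ligands 13 had a probe, and before re-stimulation 3 of the 12 used were higher in cells labelled KO past 2-fold and 0 were lower, whereas after it 0 of 11 were higher and 1 was lower. Over all genes the shares were 5.26% higher and 2.81% lower before and 5.17% and 3.85% after it, and these shares apply to each list that follows. The PD-1 ligands were among those that rose on re-stimulation in both genotypes. Pdcd1lg2 had signals of 55.3 (labelled WT) and 205.4 (labelled KO) before re-stimulation and 989.1 and 1797.2 after it, rises of 4.64 and 3.43. Cd274 had 193.4 and 518.8 before and 1659.3 and 2219.1 after it, rises of 3.58 and 2.40. Icosl, the ligand of Icos, fell on re-stimulation, with log2 differences of -1.03 in cells labelled WT and -2.09 in cells labelled KO.

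Of 19 genes listed as related receptors, not all of the same families, 17 had a probe. Between genotypes 1 of 14 was higher and 1 lower past 2-fold before re-stimulation, and 1 of 15 higher and 2 lower after it. Cd200r1, an inhibitory receptor, was higher in cells labelled KO by 1.84 and 1.42, and its ligand Cd200 was lower, with log2 differences of -1.96 and -1.18. Before re-stimulation the signals of Cd200 were low, 101.1 (labelled WT) and 25.9 (labelled KO). On re-stimulation 5 of 14 rose and 2 fell in cells labelled WT, and 4 of 15 rose and 2 fell in cells labelled KO. The shares over all genes, again for each list, were 13.2% and 13.5% in cells labelled WT and 12.4% and 13.0% in cells labelled KO. Cd200 rose by 4.28 and 5.05 and the SLAM family receptor Slamf7 by 2.70 and 2.98. Lair1, an inhibitory collagen receptor, had differences of -2.78 and -2.42, and Cd226, the activating counterpart of Tigit, of -1.12 and -1.71.

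The signalling molecules behind the receptors were listed as costimulatory or inhibitory. Of the 20 costimulatory signalling genes with a probe, 0 passed 2-fold between genotypes in either state. On re-stimulation 3 rose and 2 fell in cells labelled WT and 3 rose and 3 fell in cells labelled KO, with Malt1 (1.03 and 1.52) and Bcl10 (1.03 and 1.06), partners in NF-κB activation, higher in both and Pik3r1 (-1.82 and -1.05) lower in both. Of the 19 inhibitory signalling genes with a probe, 2 were higher and 1 lower in cells labelled KO before re-stimulation, and 3 higher and 2 lower after it. Rnf128, a ubiquitin ligase linked to T cell anergy, was higher by 1.64 and 1.34, and the adaptor gene Sh2d1b1, not well above background in cells labelled WT, was at least 1.05 and 1.25 higher. On re-stimulation 3 of these genes rose and 5 fell in cells labelled WT and 3 rose and 7 fell in cells labelled KO. Sla rose by 2.68 and 2.50 and the phosphatase gene Ptpn22 by 1.57 and 1.48. Ptpn6 (SHP-1), a phosphatase that inhibitory receptors recruit, had differences of -2.11 and -1.64, and Csk, the kinase that restrains Lck, of -1.38 and -1.59.

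Of 17 transcription factors linked to these receptors 16 had a probe. In cells labelled KO 4 were higher and 2 lower before re-stimulation, and 4 higher and 2 lower after it. Maf differed by 4.65 and 4.10 and Batf3 by 1.77 and 1.75, and Tox, known from cells with sustained inhibitory receptor expression, by -1.99 before re-stimulation and by at most -1.16 after it, where its signal in cells labelled KO was not well above background. On re-stimulation 9 rose in each genotype, among them Nr4a1 (6.88 and 7.46) and Nr4a2 (8.45 and 6.52), while 2 fell in cells labelled WT and 1 in cells labelled KO. Nfatc2 was lower in both, with differences of -1.08 and -1.17.

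**Figure D5:**
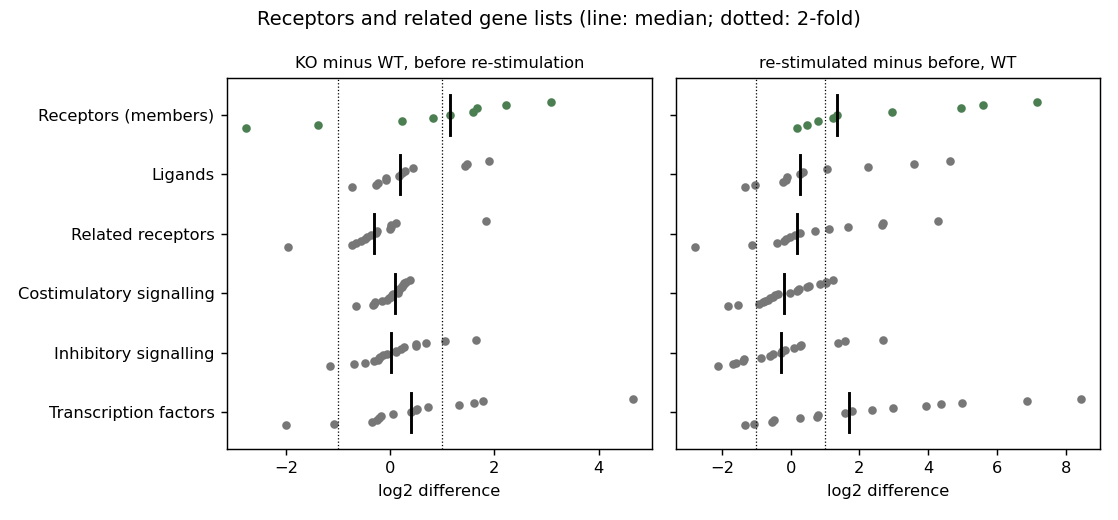
Log2 differences of the 9 receptors (green) and of the genes in 5 related lists (grey), between genotypes before re-stimulation (left) and on re-stimulation in cells labelled WT (right); each point is 1 gene, some of them bounds, the line is the median and the dotted lines mark 2-fold. The medians of the receptors, 1.14 and 1.34, stand beside medians of 0.098 and -0.18 for costimulatory signalling and 0.024 and -0.29 for inhibitory signalling. Those of the transcription factors were 0.41 and 1.68, the latter above that of the receptors. The ligands had 0.20 and 0.27 and the related receptors -0.32 and 0.19.

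The cell makeup and state of the cultures were read from marker lists. All 7 T cell identity genes with a probe were well above background on every array, with median genotype differences of -0.14 (before re-stimulation) and -0.10 (after it), and none passed 2-fold in any comparison. Re-stimulation raised 12 of 13 response genes past 2-fold in each genotype, such as Egr2 (10.04 and 9.33) and Il2 (11.54, and at least 11.27 in cells labelled KO, where it was not well above background before re-stimulation). Of the 10 reference genes 0 passed 2-fold in any comparison. Most of the mast cell and basophil genes used differed past 2-fold with the genotype label, as did Icos, Lag3, Havcr2 and Cd244. Of 11 with a probe, 4 (labelled WT) and 8 (labelled KO) were well above background before re-stimulation and 3 and 8 after it. Their summed signals were 0.71 and 16.0, and 1.83 and 29.6, in units of the 75th percentile of the array. Cyp11a1 alone, with signals of 5621.2 before and 8477.7 after re-stimulation, made up most of the sums in cells labelled KO. Past 2-fold, 5 of the 8 genes used were higher in cells labelled KO before re-stimulation and 6 after it, and 0 were lower. Cd200r3 differed by 0.41 and 0.34 between genotypes and rose on re-stimulation by 2.45 and 2.38 (labelled WT and KO). Hdc differed by 0.86 and 1.53 and rose by 1.51 and 2.18. For Gata2 the lower bounds of the genotype difference were 0.78 and 0.77. Cyp11a1 differed by 6.43 and 6.41, and the basophil protease gene Mcpt8 by at least 4.36 and 4.35, with signals of 8.5 (labelled WT) and 309.2 (labelled KO) before re-stimulation. Cpa3 was at least 4.49 and 3.58 higher and Fcer1a at least 2.31 and 2.23. The mast cell genes Mcpt4 and Tpsb2 and the receptor gene Ms4a2 stayed below the background limit on all 4 arrays. Of 6 NK cell genes with a probe, 2 and 3 were well above background before re-stimulation and 2 and 3 after it, with sums of 1.49, 3.05, 3.90 and 3.70 (labelled WT and KO before, then after). Eomes, which is also in the transcription factor list, made up most of each of these sums but the first. Its signals were 282.7, 860.0, 1039.0 and 1095.7 in the same order. Ncr1, Klra4 and Klrk1 were not well above background anywhere. The myeloid list had 3, 3, 1 and 2 of 6 genes well above background and sums of 0.54, 1.14, 0.30 and 0.64 in the same order, with Lyz2 and Itgam not well above background on any array. Adgre1 of this list was higher in cells labelled KO by 1.16 and 1.56, and Fcgr3 by at least 1.27 before re-stimulation. The B cell list had 3, 2, 2 and 2 of 6 and sums of 1.35, 1.39, 0.51 and 0.59, with Cd79a, Ms4a1 and Pax5 not well above background on any array. Cd8a was well above background only in re-stimulated cells labelled KO, at a signal of 63.0, and of the gamma-delta T cell list the 1 gene with a probe, Sox13, was not well above background anywhere. The part of such cells in the receptor differences was not tested.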

How the data were processed

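Per the labels, total RNA was amplified, labelled with Cy3 and read on 1 array per condition. The authors deposited a processed signal intensity per spot from Agilent Feature Extraction (version 10.7 in the submitters' processing notes), background-subtracted and detrended within the array and not scaled between arrays. The log2 table that the authors deposited matched these intensities on the log2 scale once the 75th percentile of each array was subtracted, with 41109 or more of 41173 probes inside 0.05. Flags beside the deposited intensities mark spots as uneven, outlying, saturated or well above background.

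Uneven or outlying spots were left out (between 107 and 120 per array), spots of one probe were averaged as log2 values, and the 75th percentile of all probes was subtracted. Of the probes, 27471 were matched by transcript accession to RefSeq genes (GRCm38.p6, used for names and promoter sequences), and the brightest probe stood for a gene. Each array read 53.56% to 53.97% of its probes well above background. Genes entered a comparison where at least 1 of its 2 arrays did so, the dimmer value was raised to the lowest such value of its array (signals between 14.5 and 17.2), and the difference is then a bound. The number of arrays limits the precision. The members and lists were chosen with earlier results of these data known, and support nothing by their choice. All members are named, and of each list at most 2 rises and 2 falls past 2-fold in both genotype or both re-stimulation comparisons, ranked by the smaller difference (1 gene that this rule names is not reported here); ligand partners and genes named in the closing section were chosen after their values were seen.

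The alternatives were scaling to the median, to Cd3e or to probes well above background on all 4 arrays, quantile normalization, normexp correction (offset 50, median spot and background signals) with quantile normalization, the deposited log2 table, the mean over probes, both arrays well above background, no filter or floor, and a 3-fold rule. Python 3.11.15, numpy 2.4.6, pandas 2.3.3, R 4.3.3 and limma 3.58.1 were used.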

Additional observations from a re-analysis of the deposited data

Results flagged for a closer look

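Re-stimulation went with opposite directions in the 2 genotypes for Icos, whose log2 difference was 0.80 in cells labelled WT and -0.32 in cells labelled KO, a gap of -1.12. With scaling to Cd3e the value in cells labelled KO was -0.07, within the spread between probes. For Ctla4 the genotype difference changed sign between the states, from -1.38 before to 0.51 after re-stimulation, a gap of 1.89. For Cd160 it changed sign the other way, from 1.14 to -1.95, a gap of -3.10. Without that scaling each of these values was larger than the median spread between probes of one gene, each state of each genotype was 1 array, and no test of the gap was made, so it was not tested.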

How the results depend on the processing

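Of 405 values (9 receptors, 5 comparisons, 9 alternatives), 322 stayed within the median probe spread, 83 moved further and 0 changed sign from a value past 2-fold. Of these 83, 31 came with normexp and quantile normalization, 27 with scaling to Cd3e and 18 with scaling to the median. Under normexp the median over the receptors was 0.72 for the genotype difference before re-stimulation and 1.08 and 1.96 for re-stimulation in cells labelled WT and KO, and before re-stimulation 3 receptors were higher and 1 lower past 2-fold. With scaling to Cd3e these medians were 1.28, 1.64 and 3.32. With scaling to the median those for re-stimulation were 1.05 and 2.80. With a 3-fold rule 3 receptors were higher and 1 lower in cells labelled KO before re-stimulation, 2 were higher after it, and 1 had a smaller response in cells labelled KO. For the 3-fold rule the stricter rule is the cause by construction, and for the scalings it is the shift of all genes, of which the median moved by -0.30 and -0.26 on re-stimulation (labelled WT and KO) with scaling to the median, and by 0.27 and 0.25, and 0.14 between genotypes before re-stimulation, with scaling to Cd3e. Without filter or floor it moved by 0.34 and 0.30 on re-stimulation and by 0.10 between genotypes before it. The normexp offset adds 50 to each signal, which by construction narrows log2 differences between dim signals. How much of the normexp values comes from this was not tested. No paired analysis was possible because each condition was read on 1 array.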

Other observations

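Over the ligand, related receptor, 2 signalling, transcription factor and response lists together, 97 genes had a probe and 85 were well above background on all 4 arrays. The log2 difference on re-stimulation in cells labelled KO minus that in cells labelled WT was at most -1 for 10 of the 85, against 3.00% of 10807 genes, and at least 1 for 0, against 1.82%, with a median of -0.013. Icosl fell further in cells labelled KO and Sh2d1a fell past 2-fold in those cells alone (-1.10, against 0.08), while for the other 8 the difference was positive in both genotypes and smaller in cells labelled KO. The 10 are named with their values seen. They include the PD-1 ligands Pdcd1lg2 (-1.21) and Cd274 (-1.19), the ligand Icosl (-1.06), the SLAM receptor Slamf6 (-1.23) and its adaptor Sh2d1a (-1.18). The others are the transcription factors Nr4a2 (-1.93), Eomes (-1.71), Egr1 (-1.58) and Irf4 (-1.08) and the cytokine Ifng (-1.85). For Ifng the signals were 349.9 (labelled WT) and 1175.2 (labelled KO) before re-stimulation and 158625.4 and 167602.9 after it, so that the genotypes differed by 1.75 before and by -0.09 after it.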
